A study of Homo sapiens with 6 samples.

Results

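The carnitine shuttle genes described here are CPT1A, CPT1B, CPT2, SLC25A20, CROT and CRAT. They were chosen by symbol, and all 6 were found among the 12396 rows that carry a gene name in a table of 14006 rows. The table comes from RNA-seq of JHH-4, a human hepatocellular carcinoma cell line. The miR372_3p group carried a plasmid coding for the primary transcript of hsa-miR-372-3p, which overexpresses the microRNA, and the Control group is labelled WT, with no word on what plasmid, if any, it carried. Each group held 3 libraries, which the series calls technical replicates, so n counts libraries, and every p-value below measures only the spread between them.

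Long-chain fatty acids cannot cross the inner mitochondrial membrane as acyl-CoA. A carnitine palmitoyltransferase of the outer membrane, CPT1A in liver and CPT1B in muscle, passes the acyl group to carnitine, and this step is inhibited by malonyl-CoA, the first product of fatty acid synthesis. SLC25A20, the carnitine-acylcarnitine translocase, exchanges the acylcarnitine for free carnitine across the inner membrane, and CPT2 then rebuilds acyl-CoA in the matrix for beta-oxidation. CROT, the carnitine octanoyltransferase of peroxisomes, and CRAT, the carnitine acetyltransferase of mitochondria and peroxisomes, make carnitine esters of medium-chain and short-chain acyl groups. The series title names CPT1A, with ACSL4, as a target of the microRNA, so the comparison asks how far the shuttle's transcripts changed with miR-372-3p.

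A microRNA finds messenger RNAs mainly by its seed, bases 2 to 8, through base pairing to short matches, most often in a 3′ UTR. The seed of miR-372-3p is shared by 12 mature human microRNAs in the RefSeq table (GRCh38.p14), of the miR-302, miR-372, miR-373 and miR-520 groups. The overexpressed microRNA and 2 relatives are shown to make the shared seed visible, with the seed in capitals and the bases outside it in lower case.
hsa-miR-372-3p: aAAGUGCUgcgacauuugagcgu
hsa-miR-373-3p: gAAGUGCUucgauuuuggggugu
hsa-miR-302a-3p: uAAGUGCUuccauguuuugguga
The match to this seed in a messenger RNA is AGCACTT, and it becomes the 8-base match AGCACTTA where an A follows. Transcripts of the microRNA's own locus were not analysed here, so the overexpression itself was not checked.

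In the longest annotated 3′ UTR of each gene (GENCODE 29, GRCh38), only CPT1A and CROT among the 6 genes held the match, with 2 copies in CPT1A and 4 in CROT. Of these, 1 site of CPT1A and 3 of CROT are printed, because such matches set these 2 genes apart from the other 4, with the matched bases in capitals and up to 11 neighbouring bases on either side in lower case. All lie on the strand of the gene, which is the minus strand for CPT1A and the plus strand for CROT.
CPT1A, chr11:68755328-68755334: tgggcaagaatAGCACTTcccgttaaaag
CROT, site a, chr7:87398662-87398669: atcatctattaAGCACTTAccaaaacatat
CROT, site b, chr7:87399032-87399038: tccatctttcaAGCACTTtaattttttta
CROT, site c, chr7:87399623-87399630: tagaaaaataaAGCACTTAtgtttaaattt
The sites of CROT that end in a capital A after the T are its 8-base matches. The printed CPT1A site began 2310 nt after the stop codon in a 3′ UTR of 2755 nt, and the printed CROT sites began 18, 388 and 979 nt after it in a 3′ UTR of 1151 nt. The longest 3′ UTRs of CPT1B (254 nt), CPT2 (805 nt), SLC25A20 (779 nt) and CRAT (587 nt) were shorter than either.

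Seed matches of this kind are common, and a longer 3′ UTR has room for more of them. The search read the strand of the transcript only, and each AGCACTTA also counts as AGCACTT and as GCACTT. Of 12192 measured genes with a 3′ UTR of at least 50 nt, 25.5% held AGCACTT at least once and 7.49% held at least 2 copies, as CPT1A does. CROT's arrangement was rarer: 32 genes (0.262%) held at least 2 copies of AGCACTTA, and 112 genes held at least 4 copies of AGCACTT.

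The printed CPT1A site was present in 1 of the gene's 5 annotated coding transcripts. CROT sites a and b were present in 2 of 4 such transcripts and site c in 1 of 4, and which of these 3′ UTRs the cells used was not measured.

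Of the 6 shuttle genes, 5 fell in miR372_3p cells, none rose and CPT1B did not pass the test. Over all 12396 genes 27.7% fell and 26.8% rose, and 54.5% changed in either direction, so a call by itself is common in these data. CPT1A and CROT fell by nearly the same factor, 2.91-fold and 2.82-fold, while CPT2 fell 1.55-fold, CRAT 1.31-fold and SLC25A20 1.29-fold. The median log2 fold change of the 6 genes was −0.51, against 0.0013 over all genes. Calls used edgeR's quasi-likelihood test on the deposited read counts, with the p-value adjusted over all 12396 genes and a threshold of 0.05. Levels are CPM, counts for each 1000000 of the library size after TMM scaling. In RNA from whole cultures, fewer cells that express a gene and less RNA of it in each cell cannot be told apart.

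**Figure D1:**
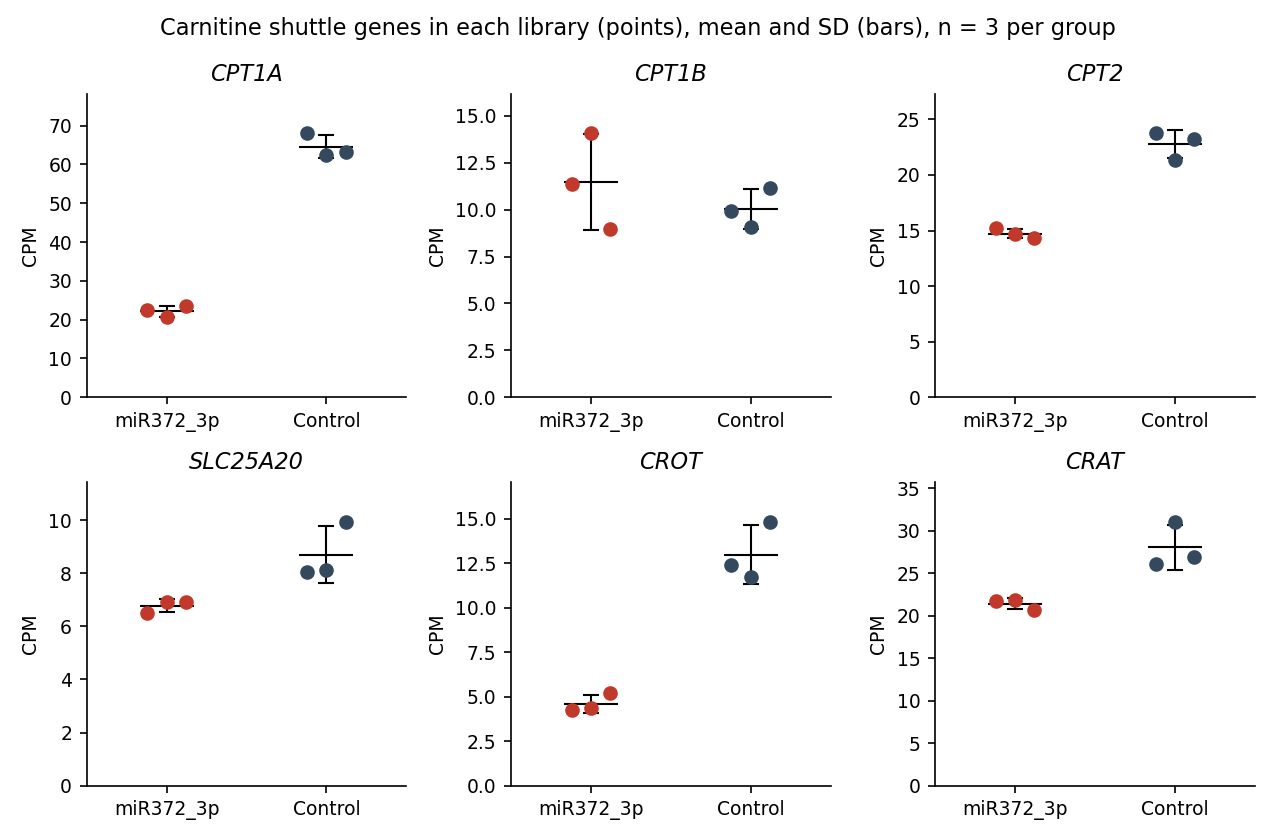
CPM of each shuttle gene (y axis, from 0) in the 3 miR372_3p libraries (red) and the 3 Control libraries (dark blue), with replicates 1 to 3 from left to right and bars for the mean and SD. The groups do not overlap for CPT1A, CPT2, SLC25A20, CROT or CRAT, and they do for CPT1B. Over all 12396 genes the groups did not overlap for 62.2%, and for 31.4% every miR372_3p library was below every Control library.

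Total counts ran from 52511378 to 61699567 in the miR372_3p libraries and from 48325676 to 49693205 in the Control libraries. Control replicate 3 stood apart from the other 2 Control libraries on the second principal component (14.8, against −5.16 and −9.40). The label of a hepatocellular line was checked against 13 hepatocyte markers: 5 were measured, at a summed 66.7 to 68.5 CPM in miR372_3p and 62.3 to 69.7 CPM in Control, of which 2 fell and 3 rose, while ALB, APOA1, APOB, APOH, TTR, TF, AFP and HNF4A were not analysed here. Of 5 markers of simple epithelium, EPCAM and CDH1 were not analysed here, and KRT8, KRT18 and KRT19 had a summed 6248 to 6495 CPM in miR372_3p and 3382 to 3490 CPM in Control, and all 3 rose. Of 10 markers of blood, endothelial and stromal cells 4 were measured, with a summed 210 to 221 CPM in miR372_3p and 131 to 154 CPM in Control. Of these, COL1A1 and PDGFRB rose, while COL1A2 and CD68 did not pass. PTPRC, LYZ, HBB, PECAM1, VWF and ACTA2 were not analysed here. The part of these shifts in the results on the shuttle was not tested.

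CPT1A (ENSG00000110090, chromosome 11, 68754620 to 68844410, minus strand) makes long-chain acylcarnitines at the outer membrane and is the step at which entry is controlled. Its level was 22.4, 20.6 and 23.5 CPM in miR372_3p replicates 1 to 3, against 68.1, 62.4 and 63.3 CPM in Control replicates 1 to 3. The groups lay far apart, with every miR372_3p library below 24 CPM and every Control library above 62 CPM. Its fold change on the log2 scale was −1.54, SE 0.060 (95% interval −1.68 to −1.41, edgeR adjusted p = 5.62e-08), which leaves 34.3% of the Control level. Only 136 of 12396 genes had a lower log2 fold change. Genes that fell at least 2-fold past the threshold made up 3.20% of those tested.

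CROT (ENSG00000005469, chromosome 7, 87345681 to 87399795, plus strand) moves medium-chain acyl groups, left by peroxisomal chain shortening, onto carnitine for export to mitochondria. Its level was 4.25, 4.39 and 5.19 CPM in miR372_3p and 12.4, 11.7 and 14.8 CPM in Control, from 222 to 291 counts a library in miR372_3p and 546 to 721 in Control. Again no library of one group came near the other group. On the log2 scale the change was −1.49, SE 0.126 (95% interval −1.78 to −1.21, edgeR adjusted p = 7.96e-06), and 152 genes had a lower one. The fall of CROT came close to that of CPT1A, with intervals that overlap, and its standard error was the larger of the 2 at a lower count. In the deposited FPKM values, which scale counts to transcript length, the log2 fold change of CROT was smaller, at −1.25. It was taken after 0.1 was added to each FPKM, which makes a change at low levels smaller. Counts per FPKM of CROT also differed between the groups, by −0.18 on the log2 scale, as given under other observations. The part of each in the smaller change was not tested.

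CPT2 (ENSG00000157184, chromosome 1, 53196429 to 53214197, plus strand), the matrix enzyme that turns acylcarnitine back into acyl-CoA, fell as well. Its level was 15.2, 14.7 and 14.3 CPM in miR372_3p, against 23.8, 21.3 and 23.3 CPM in Control. The 3 miR372_3p libraries lay within 1 CPM of each other and below every Control library. This is a log2 fold change of −0.63, SE 0.070 (95% interval −0.79 to −0.47, edgeR adjusted p = 4.83e-05). The longest 3′ UTR of CPT2, 805 nt, held no copy of GCACTT, the 6-base core of the match that 40.6% of searched genes contain.

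SLC25A20 (ENSG00000178537, chromosome 3, 48856931 to 48898993, minus strand), the carrier between the CPT1 and CPT2 steps, fell by a small amount. Its level was 6.49, 6.90 and 6.92 CPM in miR372_3p, against 8.05, 8.11 and 9.95 CPM in Control. The groups did not overlap, but Control replicate 3 was well above the other 2 Control libraries. In log2 terms the change was −0.36, SE 0.115 (95% interval −0.62 to −0.11, edgeR adjusted p = 0.0222). The call was lost without Control replicate 3 (log2 fold change −0.26, edgeR adjusted p = 0.0784) and without miR372_3p replicate 1 (−0.33, edgeR adjusted p = 0.0745), and adjusted p ran up to 0.0784 over all alternatives.

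CRAT (ENSG00000095321, chromosome 9, 129094810 to 129111189, minus strand), which buffers acetyl-CoA by making acetylcarnitine, had 21.7, 21.9 and 20.6 CPM in miR372_3p libraries, against 26.1, 31.1 and 26.9 CPM in Control libraries. All miR372_3p libraries were below all Control libraries, with Control replicate 2 the highest. That gave a log2 fold change of −0.39, SE 0.075 (95% interval −0.56 to −0.22, edgeR adjusted p = 0.00169). As with CPT2 and SLC25A20, its longest 3′ UTR (587 nt) held no GCACTT, and 31.4% of all genes had every miR372_3p library below every Control library.

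**Figure D2:**
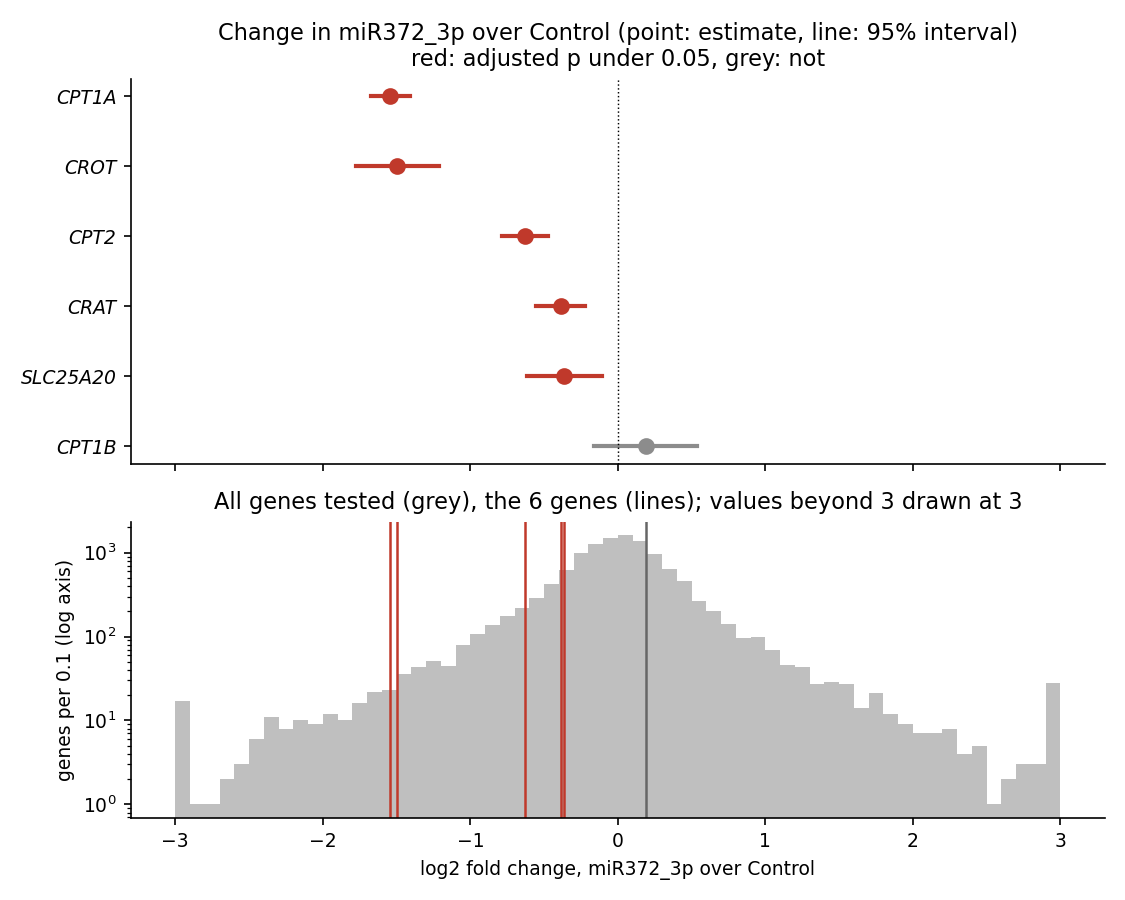
Top: log2 fold change of each shuttle gene in miR372_3p over Control (point) with its 95% interval (line), red where the adjusted p was under 0.05. Bottom: the number of genes (log axis) by log2 fold change for all 12396 genes, with lines at the 6 genes: CPT1A and CROT lie in the lower tail, at −1.54 and −1.49, and SLC25A20 and CRAT nearer the bulk. Values beyond 3 in either direction are drawn at 3.

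CPT1B (ENSG00000205560, chromosome 22, 50568861 to 50578465, minus strand), the muscle form of the outer-membrane enzyme, did not pass the test. Its level was 11.4, 14.1 and 8.98 CPM in miR372_3p, against 9.95, 9.06 and 11.2 CPM in Control. The groups overlapped, and the 3 miR372_3p libraries differed among themselves more than the group means did. As a log2 fold change this was 0.19, SE 0.155 (95% interval −0.16 to 0.53, edgeR adjusted p = 0.329), so the interval includes no change and a rise of up to 1.45-fold, and the estimate was 0.013 without miR372_3p replicate 2.

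The CPT1B row cannot be read alone, because GENCODE annotates a read-through gene, CHKB-CPT1B (ENSG00000254413), that shares 2722 exon bases with CPT1B and has its own row. CHKB-CPT1B had 13.5, 7.0 and 13.5 CPM in miR372_3p, against 12.8, 12.3 and 11.4 CPM in Control. The library with the highest CPT1B value, miR372_3p replicate 2, thus had the lowest CHKB-CPT1B value. CPT1B took 45.6, 66.8 and 40.0% of the counts of both rows in miR372_3p, against 43.7, 42.3 and 49.5% in Control. Counted as 1 gene, a choice made after these values were seen, the pair had 24.9, 21.1 and 22.5 CPM in miR372_3p and 22.8, 21.4 and 22.6 CPM in Control. Together they had a log2 fold change of 0.037, SE 0.074 (95% interval −0.13 to 0.20, edgeR adjusted p = 0.695). CHKB, the choline kinase gene at the other end of the read-through, had 20.5 ± 0.943 CPM in miR372_3p and 20.3 ± 1.49 CPM in Control (SD, n = 3 each).

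**Figure D3:**
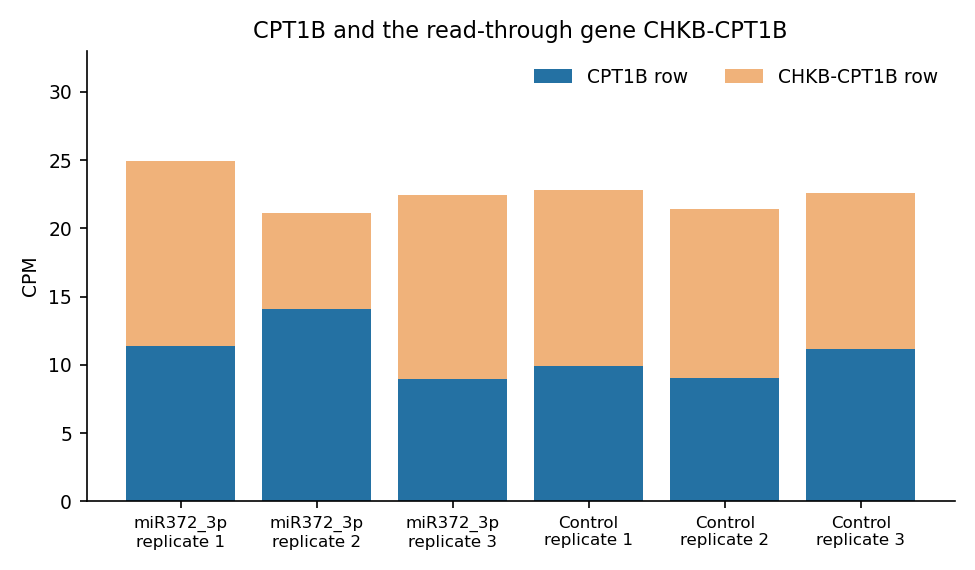
CPM of the CPT1B row (blue) and the CHKB-CPT1B row (orange), stacked, in each library. The stacked height stays between 21.1 and 24.9 CPM, while the split between the rows in miR372_3p replicate 2 differs from that in the other 5 libraries.

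Sequence shared between the 6 genes themselves was short. The longest coding transcripts of CPT1A and CPT1B shared 1 stretch of 25 bases, and no other pair of the 6 genes shared any. On the opposite strand, PTPA shares 75 exon bases with CRAT and C1orf123 shares 99 with CPT2. The antisense gene AL606760.2 shares more, 1151 exon bases with CPT2, and the antisense gene AL158151.2 shares 34 with CRAT. These 2 antisense genes were not analysed here. The library kit does not mark strand, and the part of antisense reads in the CPT2 and CRAT rows was not tested. Neither PTPA nor C1orf123 passed the test, with log2 fold changes of −0.037 ± 0.070 for PTPA and −0.013 ± 0.079 for C1orf123 (SE, n = 3 each; edgeR adjusted p = 0.678 and 0.898).

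Levels can be compared between genes only per length, in the deposited FPKM. In miR372_3p the order ran from CRAT (7.66 ± 0.589 FPKM) through CPT1B (4.69 ± 0.768), CPT2 (4.46 ± 0.184), CPT1A (3.81 ± 0.273) and SLC25A20 (3.21 ± 0.0862) to CROT (1.52 ± 0.210; SD, n = 3 each). In Control it ran from CPT1A (11.1 ± 0.501 FPKM) through CRAT (10.2 ± 0.606), CPT2 (6.67 ± 0.324), CPT1B (4.49 ± 0.387) and SLC25A20 (4.12 ± 0.555) to CROT (3.77 ± 0.512; SD, n = 3 each). CPT1A thus stood below CRAT, CPT1B and CPT2 in miR372_3p and at the top in Control. Genes whose libraries overlapped in miR372_3p were CPT1B with both CPT2 and CPT1A. In Control, CPT1A overlapped with CRAT, and CPT1B, SLC25A20 and CROT each overlapped with one another.

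Summed over the 6 genes, the shuttle had 25.3 ± 1.08 FPKM in miR372_3p and 40.3 ± 1.63 FPKM in Control (SD, n = 3 each). Of this difference of −15.0 FPKM, CPT1A gave −7.26, CRAT −2.55, CROT −2.25, CPT2 −2.22, SLC25A20 −0.91 and CPT1B 0.19. CPT1A made up 45.3, 39.2 and 50.8% of the FPKM of CPT1A and CPT1B together in miR372_3p, against 72.7, 71.9 and 68.9% in Control. This share rests on the CPT1B row, whose split from CHKB-CPT1B is uncertain.

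Ratios between the steps of the shuttle were set side by side within each library. The ratio of CPT1A to CPT2 in FPKM was 0.848, 0.781 and 0.944 in miR372_3p, against 1.68, 1.69 and 1.61 in Control, so CPT1A lay below CPT2 in FPKM in every miR372_3p library and above it in every Control library. The ratio of CPT1A to SLC25A20 was 1.26, 1.09 and 1.23 in miR372_3p and 3.06, 2.82 and 2.30 in Control. The ratio of CROT to CRAT was 0.161, 0.197 and 0.245 in miR372_3p and 0.376, 0.317 and 0.418 in Control. These 3 ratios were lower in every miR372_3p library than in any Control library, while the ratio of CPT2 to SLC25A20 overlapped between groups, at 1.49, 1.39 and 1.3 in miR372_3p and 1.82, 1.66 and 1.43 in Control.

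From the counts, the log2 ratio of CPT1A to CPT2 differed by −0.92 (SE 0.073), that of CPT1A to SLC25A20 by −1.19 (SE 0.138), that of CROT to CRAT by −1.11 (SE 0.196) and that of CPT2 to SLC25A20 by −0.27 (SE 0.111). The exact two-sided permutation test gave p = 0.1 for the first 3 and p = 0.2 for the last, and 0.133 and 0.2 after adjustment over the 4 pairs. With 3 libraries against 3, the smallest p it allows is 0.1.

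Genes that feed or control the shuttle were taken as 7 lists from textbook knowledge, chosen with earlier results of these data known. They hold 80 distinct measured genes, of which 37 fell and 14 rose, where 27.7% of all 12396 genes fell and 26.8% rose. The counts describe the lists, and no list was tested as a set. Carnitine itself enters cells through SLC22A5 and is made from trimethyllysine by a path that starts with TMLHE. Of 5 measured genes of carnitine uptake and synthesis, 2 fell (40%, against 27.7% of all genes) and none rose. SLC22A5 had 6.02, 5.72 and 7.03 CPM in miR372_3p and 10.99, 8.05 and 9.82 CPM in Control (log2 fold change −0.62 ± 0.137, SE, edgeR adjusted p = 0.00363), and TMLHE had a log2 fold change of −0.58 ± 0.127 (SE). ALDH9A1, a later enzyme of the same path with the highest mean CPM of the 5, did not pass, at −0.066 ± 0.069 (SE).

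Among genes that supply long-chain acyl-CoA, the substrate of CPT1A, 9 of 12 measured fell (75%, against 27.7% of all genes). None rose, and the median log2 fold change was −0.48. The acyl-CoA synthetase ACSL1 fell most, with 6.34, 6.43 and 6.07 CPM in miR372_3p and 14.5, 12.2 and 13.4 CPM in Control (log2 fold change −1.09 ± 0.096, SE). ACSL4, which prefers polyunsaturated fatty acids and is the other gene of the series title, fell by 0.89 ± 0.052 on the log2 scale (SE). ACSL3, with the highest mean CPM of the synthetases, fell by 0.63 ± 0.036 on the same scale. The acyl-CoA-binding protein DBI fell by 0.65 ± 0.046 and the very-long-chain synthetase SLC27A2 by 0.65 ± 0.173. The fatty acid transport proteins SLC27A1 (0.061 ± 0.096) and SLC27A4 (0.043 ± 0.047) and the receptor CD36 (−0.27 ± 0.264) did not pass.

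Genes that set CPT1 control by malonyl-CoA and AMPK went both ways. Of 12 measured, 6 fell (50%, against 27.7% of all genes) and 5 rose, where 26.8% of all genes rose. The median log2 fold change was −0.12. Malonyl-CoA is made by ACACA, in the cytosol, and ACACB, at the mitochondrial surface, and is removed by MLYCD. ACACA rose slightly (0.11 ± 0.032), ACACB fell (−0.42 ± 0.098) and MLYCD rose (0.32 ± 0.096; SE, log2 fold changes). AMPK, the kinase that inactivates both carboxylases, is made of 3 kinds of subunit. Its catalytic subunit gene PRKAA1 had 55.5, 56.7 and 54.9 CPM in miR372_3p, against 89.8, 95.3 and 86.4 CPM in Control, and it fell most in the list (−0.70 ± 0.049, edgeR adjusted p = 2.25e-06). The regulatory subunit genes split, with PRKAB1 higher (0.37 ± 0.067) and PRKAG1 lower (−0.38 ± 0.050), and STK11, which codes for an upstream kinase, rose by 0.11 ± 0.038. Of the risen genes of this list, 3 in place of 5 passed without Control replicate 1, and likewise without miR372_3p replicate 1 or 3.

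Beyond the shuttle, 11 of 17 measured enzymes of mitochondrial beta-oxidation and its electron transfer fell (64.7%, against 27.7% of all genes). Only 1 rose, and the median log2 fold change was −0.23. The changes were smaller than those of CPT1A. ETFDH (−0.59 ± 0.071) and ETFB (−0.58 ± 0.079), which carry electrons from acyl-CoA dehydrogenases to ubiquinone, fell most, followed by DECR1 (−0.43 ± 0.120), an enzyme for unsaturated fatty acids, and ACADVL (−0.41 ± 0.044), the very-long-chain acyl-CoA dehydrogenase. HADHA, a subunit of the trifunctional protein, fell by 0.16 ± 0.036. ETFA was the gene that rose (0.22 ± 0.061), and it was named after its value was seen. Without Control replicate 3, 2 genes of this list passed as risen.

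In the peroxisomal path upstream of CROT and CRAT, 5 of 16 measured genes fell (31.2%, close to the 27.7% of all genes). Another 2 rose, where 26.8% of all genes rose. These 2, named after their values were seen, were PEX5 (log2 fold change 0.35 ± 0.065) and EHHADH (0.27 ± 0.083). ACOX2, the oxidase of branched-chain and bile acid intermediates, had 2.33, 2.87 and 2.28 CPM in miR372_3p and 4.69, 5.62 and 5.58 CPM in Control (log2 fold change −1.09 ± 0.159, SE). AMACR, the racemase that prepares branched-chain acyl-CoA, fell by 0.93 ± 0.081, and the reductase PECR and the fatty acid transporter ABCD3 each by 0.40 on the log2 scale. The multifunctional enzyme HSD17B4, among the 2 genes of the list with the highest mean CPM, fell by 0.27 ± 0.044. Without Control replicate 1, and without miR372_3p replicate 1, 1 gene of this list passed as risen.

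PPARA is the nuclear receptor known to drive CPT1A, CPT2 and SLC25A20 in liver, with a retinoid X receptor as its partner. PPARA had 8.12, 8.25 and 8.55 CPM in miR372_3p and 11.9, 11.03 and 12.2 CPM in Control (log2 fold change −0.49 ± 0.086, edgeR adjusted p = 9.12e-04), and its partner RXRA rose (0.40 ± 0.094). Of 13 measured factors and coregulators, 3 fell (23.1%, near the 27.7% of all genes) and 5 rose, where 26.8% of all genes rose. FOXA2, a liver lineage factor, fell by 0.62 ± 0.063, while the coactivator PPRC1 rose by 0.26 ± 0.068. The coactivator PPARGC1A did not pass (0.0073 ± 0.074).

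Among 11 measured PPARA target genes outside the shuttle, 4 fell (36.4%, against 27.7% of all genes). Another 2 rose, where 26.8% of all genes rose, and the median log2 fold change was −0.12. TXNIP, which binds thioredoxin, fell by 0.97 ± 0.142 and ACADVL, also counted above, by 0.41. G0S2, an inhibitor of triacylglycerol lipase, rose most, to 4.72 ± 0.454 CPM in miR372_3p against 2.16 ± 0.336 CPM in Control (SD, n = 3 each), and EHHADH, a peroxisomal enzyme, rose by 0.27 ± 0.083. The lipid droplet protein PLIN2 did not pass (log2 fold change 0.0030 ± 0.040). It was among the 2 of these targets with the highest mean CPM. Without Control replicate 1, and without miR372_3p replicate 1, 1 of these genes passed as risen.

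**Figure D4:**
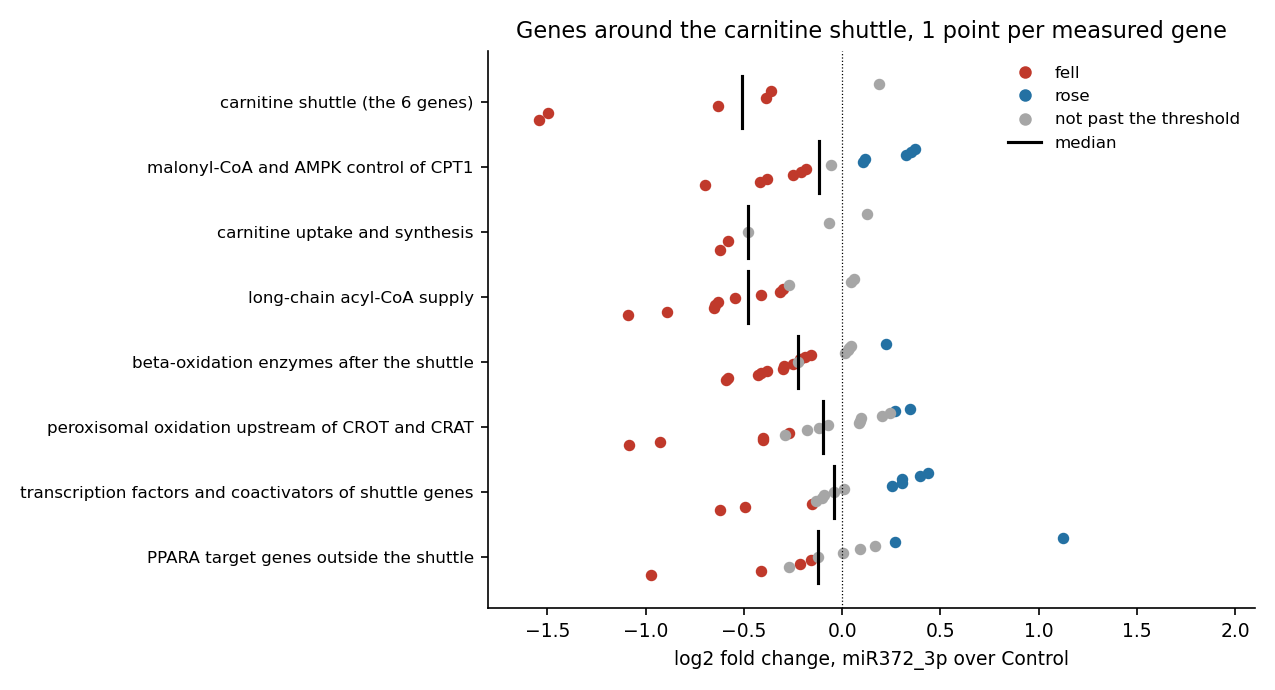
Log2 fold change in miR372_3p over Control (x axis) of each measured gene of the shuttle and of 7 lists around it, red for genes that fell, blue for genes that rose, grey for genes that did not pass, with a black line at the median. Medians lie at −0.51 for the shuttle and −0.48 for carnitine uptake and synthesis and for long-chain acyl-CoA supply, and nearer 0 for the lists of transcription factors (−0.042) and peroxisomal oxidation (−0.095).

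Genes with the seed matches that CROT and CPT1A hold were described for context. Of 31 other genes with at least 2 copies of AGCACTTA, 17 fell and 4 rose, with a median log2 fold change of −0.35, and 1 of them was lower than CROT. Of 111 other genes with at least 4 copies of AGCACTT, which CROT also holds, 31 fell and 31 rose, with a median of 0.0066. Of 911 other genes with at least 2 copies of AGCACTT, 301 (33.04%) fell and 238 (26.1%) rose, with a median of −0.021, and 17 were lower than CPT1A. Among 7245 genes with no GCACTT, 69 were lower than CPT1A and 26.2% fell. In all 12192 searched genes 27.99% fell, the median was 0.00023, and 132 were lower than CPT1A and 148 lower than CROT. The classes differ in size, so each count is to be read against the number of genes in its class.

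The genes whose levels were most like CPT1A over the 6 libraries, by the Euclidean distance between log2(CPM + 0.5) profiles centred on their own means, were TSPAN10 (0.111), SPNS2 (0.169), SLCO4C1 (0.169), ANK1 (0.173) and VSNL1 (0.175). SPNS2 exports sphingosine-1-phosphate and SLCO4C1 is an organic anion transporter. Their log2 fold changes ran from −1.64 for SLCO4C1 to −1.47 for SPNS2, around the −1.54 of CPT1A. The profiles hold the gap between the groups, so a choice by this distance favours genes with a like fold change. Nearest to CROT were GIMAP2 (0.161), S100A3 (0.166), ACSS1 (0.182), MAN1A1 (0.199) and TESPA1 (0.229). Log2 fold changes of these genes ran from −2.14 for TESPA1 to −1.34 for MAN1A1, against −1.49 for CROT. TESPA1 was low, at 0.443 CPM in miR372_3p and 1.95 CPM in Control on average. ACSS1, a mitochondrial acetyl-CoA synthetase, had 15.2 CPM in miR372_3p and 39.6 CPM in Control on average. Of the shuttle's own relatives, SLC25A29, a carrier of the same family that carries basic amino acids, did not pass (−0.13 ± 0.052, SE, edgeR adjusted p = 0.0634), and CPT1C and CHAT were not analysed here.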

How the data were processed

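RNA-seq libraries of JHH-4 cells were grouped and numbered by their titles. The authors deposited 1 table with, per the file headers, read counts, FPKM, a p-value and a log2 fold change, and 0 columns of libraries could not be matched to a label. The deposited counts are whole numbers, not normalized, with a lowest row total of 208. FPKM values were scaled by the authors to length and depth. For the log2 fold change of a gene in FPKM, 0.1 was added to each value. The authors' p-value and log2 fold change were not used. The submitters' processing notes name GRCh38, HISAT2 2.0.4, StringTie 2.2.1 and DESeq2 1.38.3. Neither the annotation nor the counting rule is given in those sources. Per the labels' protocols, libraries came from 1 µg of total RNA with a NEBNext Ultra kit, which does not mark strand.

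The 1610 rows without a gene name, 2.64 to 3.63% of counts, stayed out of library sizes and tests. The test was that of edgeR 4.0.16 under R 4.3.3 on the counts (TMM, filterByExpr, which removed 0 genes, quasi-likelihood F-test, no block, Benjamini-Hochberg over 12396 genes), after a check on simulated data. Standard errors, written after ±, and 95% intervals come from that fit. Alternatives used DESeq2 1.42.0, limma 3.58.1, other scalings and filters, and left out each library. No replicate pair agreed within sampling noise (chi-square over its degrees of freedom 6.86 to 38.6). 3′ UTRs came from the coding transcript with the longest one in GENCODE 29. The members and lists were chosen with earlier results of these data known. Genes were named from each list by size of change among those past the threshold (up to 4) and by mean CPM (up to 2). Other listed genes were named after their values were seen. Some genes and sites are not reported here.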

Additional observations from a re-analysis of the deposited data

How the results depend on the processing

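CPT1A, CPT2, CROT and CRAT fell past the threshold under every alternative run: no filter, a minimum mean of 2 CPM, RLE factors, library totals, DESeq2, limma-voom, the unnamed loci in the library size, the replicate block, FPKM with limma and each library left out. Their log2 fold changes ran from −1.59 to −1.50 for CPT1A, −0.67 to −0.57 for CPT2, −1.59 to −1.25 for CROT and −0.44 to −0.30 for CRAT. SLC25A20 kept its direction, and left-out libraries gave −0.42 to −0.26 and removed its call in the 2 cases given with its values, where fewer libraries were tested. CPT1B passed under none (0.013 to 0.34). Shuttle genes that fell numbered 4 or 5. Same-numbered libraries did not deviate together (correlations −0.126, 0.0165 and 0.1 for replicates 1 to 3). With 3 libraries in each group, this cannot show whether the numbers mark pairs. With the replicate block 3381 genes rose and 3428 fell, against 3323 and 3438 without it. Left-out libraries gave 2800 to 3546 risen and 2961 to 3553 fallen genes. Of 196 list counts under alternatives, 188 stayed within 1.5 times, and the other 8, all counts of risen genes with a library left out, are given with their lists. Counts ran from 222 to 721 a library for CROT and from 349 to 483 for SLC25A20, against 1042 to 3197 for CPT1A, and the standard error was widest for CPT1B (0.155).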

Other observations

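The counts and the FPKM of CROT did not move by the same factor. Counts per FPKM, relative to the median gene of each library and on the log2 scale, were −0.041, −0.30 and −0.16 in miR372_3p replicates 1 to 3, against 0.014, 0.00056 and 0.0093 in Control replicates 1 to 3. The difference of −0.18 was matched or exceeded in size by 4.27% of 12368 genes. For CPT1A the same measure lay between 0.76 and 0.78 in all 6 libraries, and the difference was 0.0051.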
